A study of Mus musculus with 8 samples.

Results

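Runx1 was mapped by chromatin immunoprecipitation and sequencing (ChIP-seq) in EML_C1, a mouse line of haematopoietic progenitors that grows in stem cell factor (mSCF). The map consists of 2 of the 8 libraries of the series, the Runx1 replicates 1 and 2, and all their peaks were used: 64059 in replicate 1 and 66153 in replicate 2. The other 6 libraries (Ezh2, H3K27me3 and inputs) were not used. Both Runx1 libraries carry the same labels: strain C57BL/6, passage 4 to 5, culture with 200 ng/ml mSCF, and fixation with 2 mM DSG (a protein crosslinker) for 60 min and with 1% formaldehyde for 60 min before shearing to 200 to 500 bp. No genotype or treatment separates them, so the comparisons are between the replicates and between positions on the genome. EML_C1 is a single line. Nothing in the labels ties the replicates to different cultures, so a difference between them may be technical. The lists hold no expression values, so the cells were not checked against marker levels. The depth of both libraries is unknown, since no read totals come with the lists.

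Runx1 is the DNA-binding subunit of core-binding factor and pairs with Cbfb, a partner that does not touch DNA and raises its affinity. The factor reads the letters TGTGGT, less often TGCGGT, is needed for definitive blood stem cells to arise in the embryo, and acts later in megakaryocytes, lymphocytes and myeloid cells. It commonly sits beside ETS, GATA and basic helix-loop-helix factors at enhancers and promoters, where it recruits coactivators or corepressors. GGGCGG, the GC box, is the letter string read by Sp1 and related zinc finger factors and is common in CpG-rich promoters.

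The sequences that follow show both kinds of binding place on which the results turn: strong peaks at the starts of protein-coding genes, where GC boxes are dense, and peaks at remote starts of non-coding genes that hold TGTGGT. Each is the 250 bases before the annotated start, from RefSeq on GRCm38.p6 (the mm10 coordinates), written 5′ to 3′ along the gene. Capitals mark TGTGGT (or ACCACA, its other strand) and GGGCGG (or CCGCCC). The fold is the enrichment over background that the authors' peak caller gave each peak. The first pair, Plekho2 (chr9:65580088-65580337, minus strand; folds 261 and 213 in replicates 1 and 2) and Hddc2 (chr10:31313155-31313404, plus strand; 234 and 206), are the strongest windows with neither RUNX string. Marf1 (chr16:14159275-14159524, minus strand; 181 and 144), Mfge8 (chr7:79149061-79149310, minus strand; 141 and 120) and Dennd4c (chr4:86748305-86748554, plus strand; 110 and 96.1) are strong coding starts that do hold TGTGGT. The last 3 are the strongest windows with TGTGGT at starts of non-coding genes over 5 kb from any protein-coding end: Gm33560 (chr7:141122981-141123230, plus strand; 101 and 87.4), LOC115487176 (chr9:61013180-61013429, plus strand; 50.1 and 60.1) and Gm41331 (chr15:60141661-60141910, plus strand; 48.6 and 58.1).
Plekho2: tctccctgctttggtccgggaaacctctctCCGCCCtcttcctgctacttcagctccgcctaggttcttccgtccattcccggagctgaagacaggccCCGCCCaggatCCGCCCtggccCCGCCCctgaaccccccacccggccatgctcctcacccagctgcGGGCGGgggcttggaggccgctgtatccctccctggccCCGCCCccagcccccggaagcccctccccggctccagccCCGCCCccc
Hddc2: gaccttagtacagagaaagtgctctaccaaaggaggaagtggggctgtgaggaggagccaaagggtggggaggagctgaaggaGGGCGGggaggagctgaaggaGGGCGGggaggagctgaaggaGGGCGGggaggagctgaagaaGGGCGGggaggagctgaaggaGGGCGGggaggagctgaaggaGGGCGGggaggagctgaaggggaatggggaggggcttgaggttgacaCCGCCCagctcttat
Marf1: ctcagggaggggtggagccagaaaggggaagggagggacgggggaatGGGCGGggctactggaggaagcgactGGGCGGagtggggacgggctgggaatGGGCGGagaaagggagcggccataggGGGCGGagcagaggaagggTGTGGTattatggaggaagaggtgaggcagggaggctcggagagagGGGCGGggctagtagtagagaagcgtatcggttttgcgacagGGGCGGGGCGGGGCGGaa
Mfge8: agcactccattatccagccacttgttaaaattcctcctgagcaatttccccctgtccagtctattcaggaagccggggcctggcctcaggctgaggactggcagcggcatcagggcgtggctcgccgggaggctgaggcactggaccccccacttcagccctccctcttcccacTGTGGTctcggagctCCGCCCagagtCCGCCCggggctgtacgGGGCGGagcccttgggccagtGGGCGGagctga
Dennd4c: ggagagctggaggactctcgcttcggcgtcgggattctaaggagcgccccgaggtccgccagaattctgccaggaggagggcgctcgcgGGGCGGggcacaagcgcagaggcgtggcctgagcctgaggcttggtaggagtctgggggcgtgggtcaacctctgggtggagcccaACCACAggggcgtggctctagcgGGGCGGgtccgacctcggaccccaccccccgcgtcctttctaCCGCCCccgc
Gm33560: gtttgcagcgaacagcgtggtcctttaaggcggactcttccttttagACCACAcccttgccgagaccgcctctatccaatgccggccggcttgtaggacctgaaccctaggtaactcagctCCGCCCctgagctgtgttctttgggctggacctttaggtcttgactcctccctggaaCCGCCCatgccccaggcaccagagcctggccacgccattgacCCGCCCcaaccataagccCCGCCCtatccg
LOC115487176: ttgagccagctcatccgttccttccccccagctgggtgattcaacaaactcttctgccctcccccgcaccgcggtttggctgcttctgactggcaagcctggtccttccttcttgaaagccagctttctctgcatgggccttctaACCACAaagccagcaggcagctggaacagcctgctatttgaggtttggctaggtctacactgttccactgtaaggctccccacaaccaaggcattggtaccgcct
Gm41331: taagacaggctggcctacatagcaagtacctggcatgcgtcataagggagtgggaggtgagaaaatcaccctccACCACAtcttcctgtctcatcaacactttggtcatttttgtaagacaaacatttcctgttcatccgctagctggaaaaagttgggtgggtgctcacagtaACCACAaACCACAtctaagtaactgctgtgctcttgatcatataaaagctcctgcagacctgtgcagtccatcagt

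In these stretches Plekho2 and Hddc2 each held 7 GC boxes, and the summit of Hddc2 lay 8 bp from the nearest of them. Marf1 held 8 GC boxes and a single TGTGGT. Its summit lay 3 bp from a GC box and 94 bp from TGTGGT. Mfge8 held 4 GC boxes and 1 TGTGGT, and its summit lay 1 bp from a GC box and 25 bp from TGTGGT. Dennd4c was the reverse case, with TGTGGT at 10 bp from the summit and the nearest GC box at 33 bp. Among the remote starts, Gm33560 had 4 GC boxes, the nearest 14 bp from its summit, and its TGTGGT lay 159 bp away. LOC115487176 had no GC box and a single TGTGGT at 4 bp from the summit. Gm41331 also had no GC box, and the nearest of its 3 copies of TGTGGT lay 8 bp from the summit. These windows were chosen for their fold and letters, so they illustrate the groups and do not measure how common each pattern is.

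Strong Runx1 peaks recurred in both replicates and weak ones often did not. Of the replicate 1 peaks, 44956 (70.2%) touched a replicate 2 peak by at least 1 bp and 19103 did not. Of the replicate 2 peaks, 44759 (67.7%) touched a replicate 1 peak and 21394 did not. The median fold of shared peaks was 4.19 in replicate 1 and 5.08 in replicate 2, against 2.34 and 2.48 for peaks of one list alone. Shared peaks were also wider, with medians of 356 and 378 bp against 195 and 202 bp. In replicate 1 the shared percentage rose from 32.7% at a fold of up to 2 to 44.1% at 2 to 3, 88.1% at 3 to 4 and 98.9% at 4 to 5, and every peak above 7 was shared (4519 peaks at 7 to 10, 5074 at 10 to 20 and 3049 above 20). In replicate 2 the climb came later, at 34.1%, 34.9%, 66.7% and 87.2% for the same classes, and every peak above 10 was shared (6439 at 10 to 20 and 3696 above 20). The fold belongs to the peak caller's own evidence for a peak, so a link between fold and recurrence is a property of the 2 lists and was given no test. With 2 libraries no test between replicates could reach significance: even 2 samples against 2 give a two-sided exact p of at least 0.333.

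**Figure D1:**
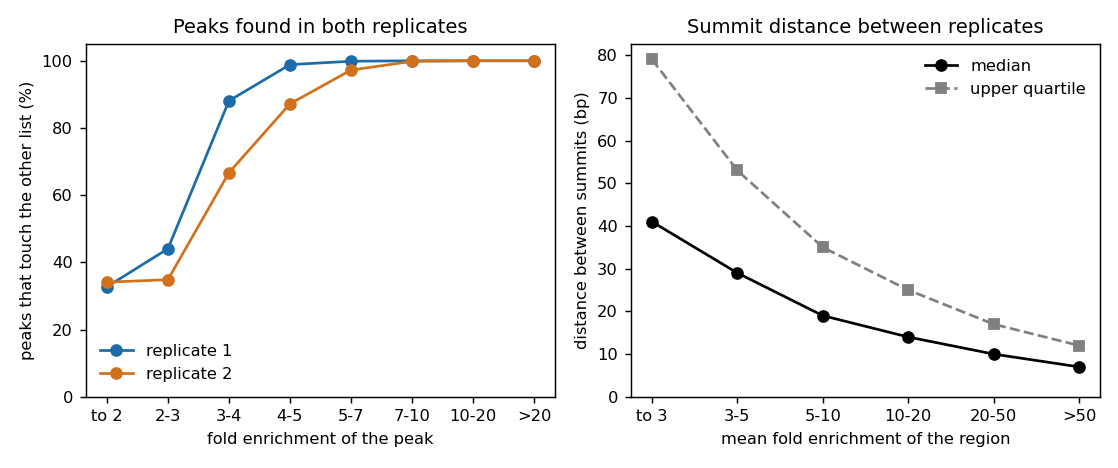
Left, the percentage of peaks of each replicate that touch a peak of the other, by fold class of the peak; right, the median and upper quartile of the distance between the replicates' summits, by mean fold of the region. Sharing reaches 98.9% in replicate 1 and 87.2% in replicate 2 at a fold of 4 to 5, and the median summit distance falls from 41 to 7 bp.

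The peaks of one list alone were mostly weak. Of the 19103 replicate 1 peaks without a partner, 170 had a q of at most 1e-05, against 1374 of the 21394 in replicate 2. Among the strongest in replicate 1, at folds of 5.39 to 5.17, were peaks nearest to Fbxl17, Ahi1 and Csf2ra and one inside Immp2l. The strongest in replicate 2 lay on chromosome 3 (143098243 to 143098578), 57676 bp from 4930519L02Rik, with a fold of 9.61. A fold of 8.59 was given to the peak inside Msrb3, a methionine sulfoxide reductase gene, and also to the peak nearest to Rab30, a Rab GTPase gene. Mex3b (8.38, nearest gene) and Nkain3 (7.36, inside) followed. The Msrb3 peak lay 260 bp from a replicate 1 peak that it did not touch. Over all peaks of one list alone, 9.81% in replicate 1 and 13.9% in replicate 2 had a summit of the other list within 1 kb.

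Place on the genome separated shared from unshared peaks also within the same fold class. Fold inside a class, q and width were not matched. At folds of 2 to 3, 16.4% of shared replicate 1 peaks lay within 1 kb of a gene end, against 5.65% of unshared ones. In replicate 2 the values were 22.0% and 7.07%. At folds of 3 to 4 they were 15.2% and 6.31% in replicate 1 and 17.1% and 5.15% in replicate 2. The direction was the same in both lists in each of these classes.

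Joining the touching peaks gave 44027 regions found in both replicates, and the replicates placed their summits close to each other. Of these regions 42483 (96.5%) consisted of exactly 1 peak from each list, 1544 of 3 or more, and the median width was 426 bp. The distance between the summits of the strongest peak of each replicate had a median of 22 bp and an upper quartile of 45 bp. In 637 regions both summits fell on the same base, 27.1% were within 10 bp, 78.5% within 50 bp and 93.1% within 100 bp. The distance exceeded 500 bp in 116 regions and reached 1900 bp. There was no shift to one side: replicate 2 lay to the right in 21739 regions and replicate 1 in 21651. The distance narrowed with the mean fold of both replicates, from a median of 41 bp for the 9375 regions of fold up to 3, through 29, 19, 14 and 10 bp, to 7 bp for the 621 regions above 50. The Runx1 promoter region itself, on chromosome 16 (92825413 to 92826580), had folds of 56.0 and 72.0 and summits 5 bp apart.

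The folds of the replicates rose together over regions. Across the 44027 regions Spearman's rho of the folds was 0.891 and Pearson's r of the log2 folds was 0.935. These describe agreement within 1 experiment: the regions share both libraries and were kept because both lists called them. Replicate 2 had the higher fold in 67.8% of regions, with a median log2 ratio of 0.19 and 90% of regions between -0.41 and 0.90. Among the strongest regions, with a fold above 50, the median log2 ratio was -0.22, so there replicate 1 was higher. The largest ratio in favour of replicate 2 was inside Zfp1, a zinc finger gene (chromosome 8, 111643263 to 111644790), with folds of 7.63 and 38.6. Regions near Raly, inside Gramd1c, near Rgs21 and near Msmo1 followed, with replicate 2 over replicate 1 at 4.35 to 4.12. In the other direction Xxylt1, a xylosyltransferase gene (chromosome 16, 31035307 to 31035520), had folds of 4.49 and 1.38. Nono, Ss18, Tcf24 and Rack1 followed, with replicate 1 over replicate 2 at 2.98 to 2.70. Apart from Zfp1, these 10 regions had folds below 10 in both replicates.

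Runx1 regions concentrated at gene starts, and not at the other ends of genes. The median distance from a region's summit to the nearest end of a protein-coding gene was 10.1 kb, and 22.2% of summits (9782) lay within 1 kb of one, while such positions make up 2.91% of the chromosomes. Of all 21887 protein-coding genes, 43.7% had a region within 1 kb of an end. Peaks of replicate 1 alone were within 1 kb in 6.44% of cases and those of replicate 2 alone in 7.34%. Strand was known for 17492 genes from the RefSeq promoter windows, which leave out chromosome 18. Of the 42641 regions on the other chromosomes, 16.9% (7221) lay within 1 kb of the start of such a gene and 2.90% (1236) within 1 kb of its other end. The 2.91% of the chromosomes given above covers both ends of all 21887 genes, so it is not the background of either share. In the last 100 bp before the start there were 138 summits per 1000 genes, and in the next 100 bp 96.1. In the 100 bp before the other end there were 0.515 per 1000, fewer than in any of the neighbouring bins within 500 bp. At 5 kb before the start there were 3.54. At 500 to 600 bp before the start the level was down to 4.92, and at 500 to 600 bp inside the gene it was still 12.8.

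**Figure D2:**
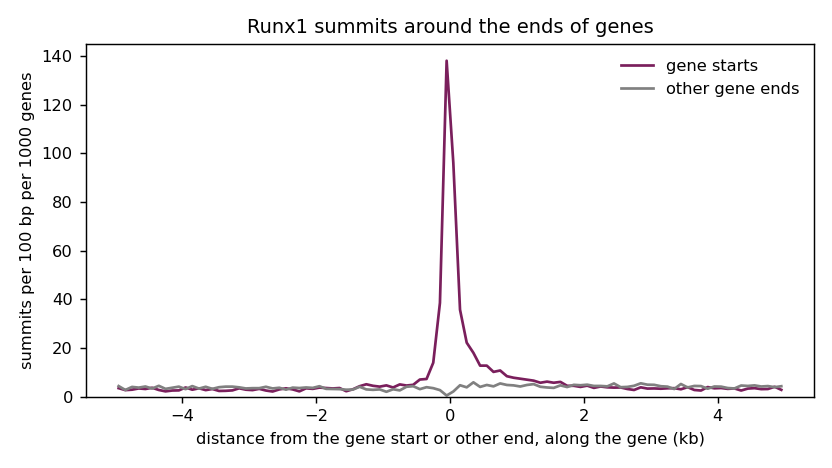
Summits of regions found in both replicates per 100 bp and per 1000 genes, by distance along the gene from the start (purple) or from the other end (grey), for 17492 genes of known strand. Starts have a narrow peak of 138 per 1000 genes just before position 0, and the other ends a dip to 0.515.

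Fold was highest at gene starts as well. For genes of known strand, regions within 1 kb of a start had a median fold of 6.42. The 869 regions within 1 kb of the other end only had 4.03, and regions elsewhere 4.50. The distance classes that follow pool starts and other ends. Regions within 100 bp of an end had a median fold of 7.83 (7.95 in replicate 1 and 7.71 in replicate 2), those at 100 to 300 bp 5.77, and all classes beyond 300 bp lay between 4.24 and 4.53. Regions above a fold of 50 made up 5.59% of the first class and 0.343% of those over 100 kb away. Of the 621 regions above 50, 67.5% lay within 1 kb of an end. Within 1 kb of a start, the 363 summits of fold above 50 were centred 54 bp before the start (quartiles -106 and 9.5 bp), and the 3264 of fold up to 5 were centred 47 bp after it (quartiles -60 and 285 bp).

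The letters under the summits differed between gene starts and remote places. The start window of a gene here is the 250 bp before to 50 bp after its annotated start, and 28.2% of the 21230 windows of protein-coding genes (5992) held the summit of a region. Among these, 77.7% held GGGCGG on either strand (95% exact binomial interval 76.6 to 78.7), against 33.5% (32.7 to 34.3) of the 14870 windows without a peak. TGTGGT was in 13.7% (12.8 to 14.6) with a region and 15.4% (14.9 to 16.0) without a peak. With TGCGGT counted too, a RUNX string was in 25.02% and 20.1%. GGAAGT, read by ETS factors, was in 32.7% and 21.5%. Intervals cover counting error only, and neighbouring genes can share a window, so windows are not independent.

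With rising fold the GC box came to be in nearly all bound coding starts. GGGCGG was in 64.9% of the windows of fold up to 5, then in 73.3%, 86.6% and 92.9%, and in 97.9% of the 333 windows above 50. The mean number of boxes in a window rose from 1.22 to 4.37, against 0.653 without a peak. The median distance from the summit to the nearest GC box was 37 bp at folds up to 5 and 11 bp above 50. With more copies in a window the nearest one lies closer in any case, and the part of copy number in this distance was not tested. TGTGGT was in 15.6% of windows (14.0 to 17.3) at folds up to 5, 15.2% at 5 to 10, 10.5% (8.85 to 12.4) at 10 to 20, 12.3% at 20 to 50 and 11.1% (7.95 to 15.0) above 50. In the lowest and highest classes the nearest copy lay a median of 74.5 and 76 bp from the summit. GGAAGT fell from 36.2% to 21.3%. The longer GGGGCGGG, which contains GGGCGG, rose from 25.7% to 76.3%, and GGGCGTGG, close to the string that Kruppel-like factors read, from 7.15% to 38.1%. Both longer strings were chosen after the data were seen, and over all 21230 windows they occurred in 22.1% and 6.97%.

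Base composition moved with fold and changes how the RUNX string reads. The median GC content of coding windows was 52.7% without a peak and 68.3% above a fold of 50. When windows were split by GC content, a split added after seeing the data, TGTGGT was more frequent with a region than without a peak in each of the 4 classes. Below 50% GC it was in 33.6% of 229 windows with a region (27.5 to 40.1) and in 19.9% of 5934 without a peak. At 50 to 60% GC the values were 19.4% and 16.3%, at 60 to 70% 12.4% and 9.90%, and from 70% up 6.13% and 3.71%. The lower share of TGTGGT at bound starts in the pooled comparison was therefore reversed within every class, over regions of all folds. At folds up to 5 the shares were 31.8%, 20.5%, 13.8% and 2.88% with rising GC. Above 20 they were 15.2% at 50 to 60% GC, 13.6% at 60 to 70% and 7.18% from 70% up. The 15.2% (9.91 to 22.0) and the 2.88% (1.33 to 5.41) lay below windows without a peak, with intervals that include those values. The difference in GC boxes shrank but kept its direction: 25.8% against 5.92% below 50% GC, 59.7% against 31.6%, 84.4% against 69.4%, and 93.7% against 91.2% from 70% up. The classes did not fully equalise composition. Below 50% GC the median was 47.3% with a region and 43.3% without a peak, and at 50 to 60% it was 56.3% and 54.3%. At 60 to 70% the medians were 64.7% and 64.0%, and from 70% up 73.3% and 74.3%. For windows of fold above 20 the mean number of boxes was 3.04 at 60 to 70% GC and 4.48 from 70% up, where windows without a peak had 1.32 and 2.79. The part of base composition in the fold was not tested.

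Far from coding genes TGTGGT was more frequent in windows with a region than in windows without a peak. Of 8642 start windows of non-coding genes more than 5 kb from protein-coding ends, 3.11% (269) held the summit of a region. TGTGGT was in 42.0% of these (36.0 to 48.2), against 20.6% (19.8 to 21.5) of 8261 windows without a peak, and 156 of the 269 held no copy. Where a string was present, the median distance from the summit to its nearest copy was 27 bp for TGTGGT, 31 bp for TGCGGT, 30 bp for GGGCGG and 39 bp for GGAAGT. Peaks of a single replicate fell between, at 32.1% of 112 windows (23.6 to 41.6). Over all 8642 windows the share was 21.5%. Below 50% GC the contrast was 56.7% of 90 windows (45.8 to 67.1) against 20.1%, and at 60 to 70% GC it was 17.1% of 41 (7.15 to 32.1) against 16.3%. The extended string TGTGGTT, chosen after the data were seen, was in 18.96% against 6.43%. GGAAGT was in 40.9% against 21.1%, and the GC box in 30.5% against 7.94%. Below 50% GC the GC box was in 4 of the 90 windows with a region (4.44%), near the 3.39% without a peak. GATAAG, read by GATA factors, was in 9.29% against 9.32%. Peak sequences away from annotated starts were not analysed here, so most of the map's remote regions are not covered.

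**Figure D3:**
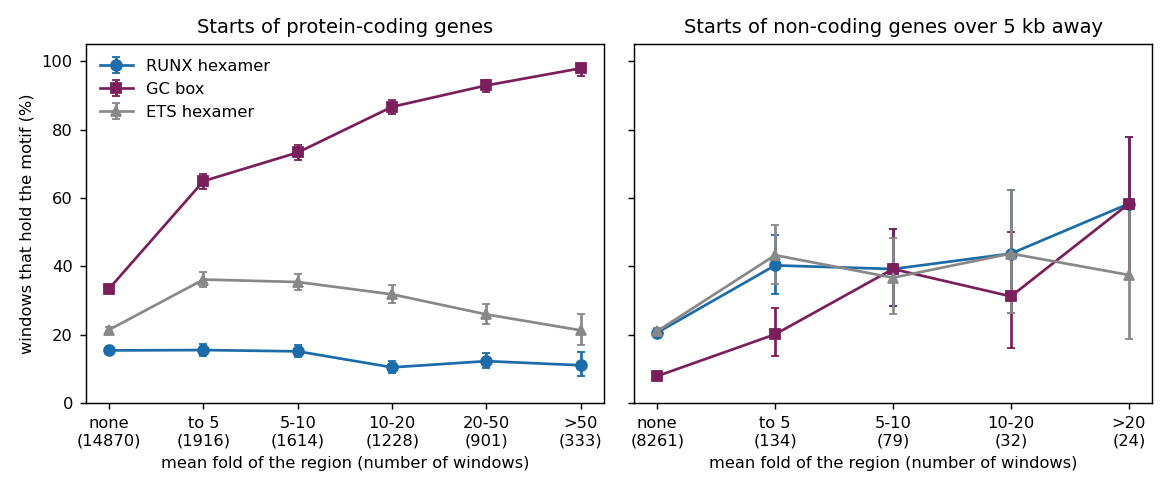
Percentage of 300 bp start windows that hold TGTGGT (RUNX hexamer), GGGCGG (GC box) or GGAAGT (ETS hexamer), by fold of the Runx1 region in the window, with exact 95% binomial intervals and window numbers, for protein-coding starts (left) and remote non-coding starts (right). At coding starts the GC box reaches 97.9% while TGTGGT is in 15.6% of windows at folds up to 5 and 11.1% above 50. At remote starts TGTGGT is in 20.6% of windows without a peak and in 39.2% to 58.3% of those with a region. The GC box there is in 7.94% without a peak and in 20.1% to 58.3% with a region. Both top values are from 24 windows of fold above 20.

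Regions came in loose clusters. The median gap between neighbouring summits was 13513 bp and the mean 60131 bp, with quartiles of 4425 and 36548 bp. Within replicate 1 alone the median gap was 12306 bp, and within replicate 2 alone it was 10079.5 bp. Of the 44006 gaps 6.30% were at most 1 kb, 42.5% at most 10 kb, 9.26% over 100 kb, and 418 over 1 Mb. The 3 closest pairs lay in or at Eapp (148 bp apart, chromosome 12), Antxr2 (254 bp, chromosome 5) and Cyren (254 bp, chromosome 6). All 6 regions of these pairs had mean folds between 1.55 and 2.46. The widest gaps were on chromosome Y, at 50.7 and 19.4 Mb. The widest elsewhere was 8.36 Mb on chromosome 14, between a region 321669 bp from Trim52 and one 270913 bp from Gpc5, a glypican gene, with 3 protein-coding genes inside it.

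**Figure D4:**
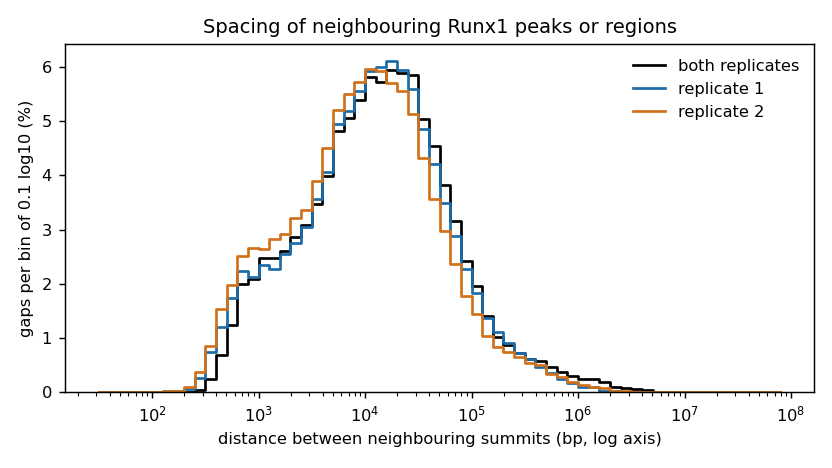
Distribution of the distances between neighbouring summits on a log axis, as the percentage of gaps in each bin, for regions found in both replicates (black) and for all peaks of replicate 1 (blue) and replicate 2 (orange). All 3 curves have a broad maximum near their medians of 13513, 12306 and 10079.5 bp and a shoulder near 1 kb.

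Chromosomes differed in density. Per 100 kb of summed gene span, autosomes held from 2.00 regions (chromosome 1) to 3.79 (chromosome 11), chromosome X held 0.934 and Y 0.131. X carried 758 regions for 966 genes, with a median gap of 31299 bp. The median fold of its regions, 5.00, was not lower than that of the autosomes, which ranged from 4.45 to 4.91, and 33.8% of them lay within 1 kb of a gene end, above every autosome (15.9% to 27.2%).

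Genes were bound unevenly. A region's summit lay inside the span of 46.2% of the 21887 protein-coding genes (10106), and 56.6% of regions lay inside a gene. With the peaks of replicate 1 alone 54.3% of genes had a summit in the span, and with those of replicate 2 53.2%. Exactly 1 region was found in 5084 genes, 2 in 2181, 3 or 4 in 1538, 5 to 9 in 979, and at least 10 in 324, which held 18.3% of all assignments. Long genes hold more regions and fewer per kb: density was 6.61 regions per 100 kb for genes of up to 2 kb, and fell from 8.14 regions per 100 kb for genes of 2 to 5 kb to 1.04 for those over 200 kb, against 2.42 over all gene span. More than 1 kb from both ends the overall density was 1.97.

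Of all genes, Pde4d, a cyclic AMP phosphodiesterase gene of 1302 kb, had most regions, at 56 (69 peak summits in replicate 1 and 87 in replicate 2), which is 4.30 per 100 kb. The Runx1 gene (chromosome 16, 92601466 to 92826074) came second with 47 regions (58 and 62 peaks) in 225 kb, 20.9 per 100 kb and a median gap of 2.94 kb. Its regions ranged in mean fold from 1.50 to 64.0 with a median of 3.38, and 10 were above 10. Gse1, which codes for a coiled-coil protein, followed with 44 regions (12.5 per 100 kb, 51 and 53 peaks), and then came Foxp1, a forkhead repressor gene (33 regions, 44 and 49 peaks), and Snx29, a sorting nexin gene (30, 35 and 37 peaks). Zmiz1, a coactivator gene, had 28 regions at 13.4 per 100 kb. Tiam1, a Rac exchange factor, Maml3, a Notch coactivator, and Acoxl, an acyl-CoA oxidase-like gene, had 27 each, and Rere, a corepressor gene, 26. Of these 10 genes Runx1 was the densest.

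Among the 1829 genes of at least 10 kb with at least 4 regions, Mob3a, a kinase adaptor gene on chromosome 10, was densest with 7 regions in 16.6 kb (42.3 per 100 kb, 7 peaks in each replicate). Sgsh, a lysosomal sulfamidase, Amz2, a metalloprotease, Dusp4, a MAP kinase phosphatase, and Fhl3, a LIM domain protein, had 5 regions each at 41.6 to 39.5 per 100 kb. Gata2, the GATA factor of stem and mast cells, had 5 regions in 13.1 kb (38.0 per 100 kb), all weak: its strongest had folds of 3.63 and 3.11. Myadm, a myeloid differentiation marker gene, had 4 regions with folds up to 20.0 and 21.1, and Sh2d5 had 4 with folds up to 26.1 and 28.5. Plekho1 and Brd2, a bromodomain coactivator gene, also had 4 each.

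The genes of core-binding factor were dense as a group, at 11.6 regions per 100 kb over 4 genes (15.1 with replicate 1 peaks and 16.0 with replicate 2), and at 6.61 without Runx1. Runx2, the bone and cartilage member, had 21 regions (28 and 31 peaks) with folds up to 80.3 and 70.8. Runx3, the lymphoid and neuronal member, had 7 (11 and 10 peaks) with folds up to 7.59 and 8.89 inside the span and a stronger region 133 bp from one of its ends (26.4 and 30.0). Cbfb had no region inside its span and 1 with folds of 19.4 and 15.4 at 27 bp from an end.

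Among partner factors, 18 of 27 ETS genes had a region in the span (66.7%, against 46.2% of all genes), at 6.78 per 100 kb. Their median span was 28.9 kb, and 59.3% of all genes of 20 to 50 kb had a region. Etv6, a repressor needed in blood stem cells, had 18 (27 and 21 peaks), Erg, a stem cell factor, 13 (18 and 19), and Fli1, a megakaryocyte factor, 9 (13 and 14). Spi1, which codes for the myeloid and B cell factor PU.1, had 7 in 33.4 kb (7 and 7 peaks) with folds up to 33.1 and 33.2. The 9 without one were Elf3, Spic, Etv1, Fev, Ehf, Elf5, Ets2, Spdef and Etv2. Of these, Ets2 had a region 297 bp from an end, with folds of 4.97 and 6.21. Of 8 GATA and Friend-of-GATA genes, 5 had a region (62.5%), near the 59.3% of all genes of 20 to 50 kb. The median span of these 8 was 32.0 kb. Zfpm1, the cofactor of GATA factors in red cells and megakaryocytes, had 13 (15 and 14 peaks), and without it the density of the group fell from 3.51 to 1.75. Gata3 had 3 regions and Gata1 2, while Gata4, Gata5 and Gata6, factors of heart and gut, had 0. Of 5 Ikaros genes 4 had a region (80%), led by Ikzf1, the lymphoid regulator, with 12 (14 and 14 peaks) and folds up to 12.7 and 21.6. The median span of the Ikaros genes was 81.4 kb, and 68.6% of all genes of 50 to 100 kb had a region. Of 6 genes with a C/EBP symbol, Cebpd had 2 regions, the stronger with folds of 3.27 and 2.86, Cebpb had 1 (1.95 and 3.02), and Cebpa, Cebpe, Cebpg and Cebpz had none in the span. All 6 had a region within 1 kb of an end, against 43.7% of all genes.

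Over 65 families of at least 5 genes, 47 were denser than all genes together and 18 less dense. The densities from replicate 1 peaks and replicate 2 peaks ranked the families alike (Spearman's rho 0.978 over the 65 families, a description since the families overlap in members and the lists share the genome). The order of the densest depends on gene length and on starts. Cytosolic ribosomal proteins came first at 12.5 per 100 kb (14.8 and 14.8 in replicates 1 and 2). Their genes are short, with a median span of 3.17 kb. A region lay within 1 kb of an end in 75 of 86 (87.2%), against 43.7% of all genes. More than 1 kb from the ends the density was 4.71. Rpl18, Rpl8 and Rpl5 had 2 regions each. Keratin-associated proteins, hair shaft genes, reached 12.5 on 6 regions in 48.1 kb, and 6 of 56 genes (10.7%) had one. Their median span was 0.833 kb, and 6.81% of all genes of up to 2 kb had a region. Krtap5-2, Krtap28-13 and Krtap5-3 had 1 each, with folds between 5.27 and 11.6.

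Mast cell genes followed at 11.8 per 100 kb (13.4 and 17.4) and first, at 14.2, when positions within 1 kb of an end were left out. This rested on few genes, and without Cpa3 the density fell to 6.00. A region was in 5 of 14 (35.7%), against 46.2% of all genes. The median span of the mast cell genes was 4.2 kb, and 24.4% of all genes of 2 to 5 kb had a region. Cpa3, mast cell carboxypeptidase, had 9 regions in 26.6 kb (11 and 12 peaks) with folds up to 4.16 and 7.16, and a stronger region 47 bp beyond an end (15.2 and 25.9). Hdc, the histamine-forming enzyme, had 3 weak regions, and Fcer1g, the gamma chain of Fc receptors, had 1 with folds of 20.2 and 30.6.

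Several signalling families of blood cells were denser than all genes together, and their shares of genes with a region stand against 46.2% of all genes. That share depends on gene length: it was 24.4% for genes of 2 to 5 kb and 34.8% at 5 to 10 kb. At 10 to 20 kb it was 46.7%, and at 20 to 50 kb 59.3%. All 11 STAT and JAK genes, which carry cytokine signals to the nucleus, had a region (100%, 8.33 per 100 kb, 9.03 and 11.8 by replicate). Jak1 had 14 (15 and 19 peaks), Stat4 9 and Stat5b 8. NF-kB factors and their inhibitors had regions in 13 of 14 genes (92.9%, 8.44 per 100 kb), led by Nfkb1 with 12, Bcl3 with 5 and folds up to 24.3 and 22.8, and Nfkb2 with 2 and folds up to 29.65 and 27.04. Chemokine receptors had them in 14 of 23 genes (60.9%, 8.36 per 100 kb), with Ccr2, Ccr4 and Ccr6 at 2 each. The Bcl2 family, which sets survival and death, had them in 15 of 24 (62.5%, 7.61 per 100 kb). Bcl2l1 had 9 regions, Bcl2 6 and Bcl2l11 5. Leaving out positions within 1 kb of an end, the densities were 7.58 for STAT and JAK, 6.62 for NF-kB, 6.61 for chemokine receptors and 6.98 for Bcl2. All 4 exceeded 3 times the 1.97 of all genes, an average that long genes lower. This interior density was 4.62 for genes of 2 to 5 kb, 3.79 at 5 to 10 and 3.21 at 10 to 20. At 20 to 50 kb it was 2.83, and over 200 kb 1.01. The median spans of the 4 families were 42.4, 18.8, 7.25 and 9.99 kb, in the same order. The part of gene length was not tested. C/EBP genes, at 8.23 over the whole span on 3 regions, had an interior density of 0. Haematopoietic cytokine receptors had a region in 27 of 33 genes (81.8%, 7.23 per 100 kb). Erythroid genes had a region in 6 of 23 (26.1%), at 1.02 per 100 kb against 2.42 for all genes. By single lists they had 2.16 and 2.54 peaks per 100 kb, against 3.40 and 3.56 for all genes. Neutrophil granule genes, with a median span of 4.73 kb, had a region in 6 of 17 (35.3%), at 4.94 per 100 kb. The differences between these lists were not tested.

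The least dense families were receptors and adhesion genes of neurons and sense organs and genes of drug metabolism. Glutamate and GABA receptors had 0.198 regions per 100 kb (0.628 and 0.463 by replicate), with 4 in Grik4 and 2 each in Grm4 and Grin1. A region was in 17 of 47 genes (36.2%). These genes are long, with a median span of 137 kb. Among all genes of 100 to 200 kb the density was 2.49 and 74.1% had a region, and over 200 kb the values were 1.04 and 69.0%. The part of gene length was not tested. Vomeronasal receptors had 0.330, with 11 of 353 genes bound (3.12%), against 6.81% of all genes of up to 2 kb. Their median span was 0.96 kb. An exception in strength was Vmn1r4, with a region 14 bp from an end at folds of 97.8 and 76.0. Cytochrome P450 genes had 0.438, with 4 of their 12 regions in Cyp11a1, the first enzyme of steroid synthesis, 3 in Cyp20a1 and 1 in Cyp4f37. Protocadherins and cadherins had 0.604, with 14 regions in Pcdh7, 12 in Cdh23 and 5 in Cdh4. Their median span was 96.2 kb, and the density of all genes of 50 to 100 kb was 2.98.

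**Figure D5:**
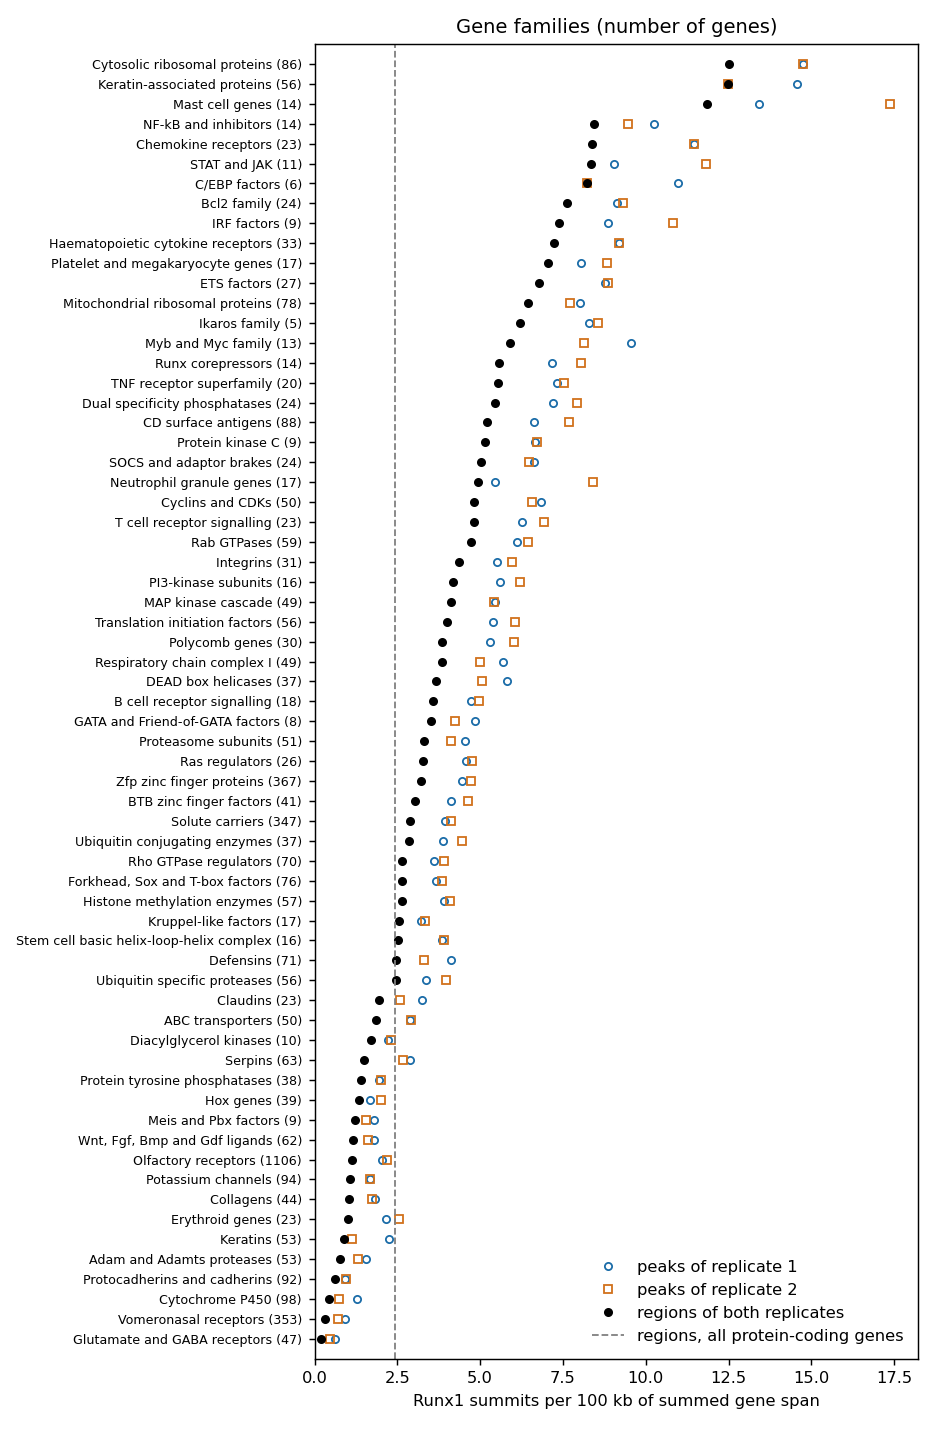
Summits per 100 kb of summed gene span for 65 gene families (number of genes in brackets), for regions found in both replicates (black), replicate 1 peaks (blue circles) and replicate 2 peaks (orange squares); the dashed line is the 2.42 of all protein-coding genes. Ribosomal, keratin-associated and mast cell genes lie at the top between 11.8 and 12.5, and glutamate and GABA receptors at the bottom at 0.198.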

How the data were processed

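Peaks were measured in the Runx1 libraries of replicates 1 and 2. Per the submitters' processing notes, MACS2 2.0.10, Bowtie2 2.2.1, SAMtools and Picard were used with the build mm10, without stated roles or settings. The deposited lists hold 1 list per replicate, so peaks were not pooled. The authors deposited for each peak a fold enrichment (a linear ratio), a p-value and a q-value as -log10 values, and a summit position. Weak peaks are included, so counts depend on the threshold, and alternatives used q of at most 0.01 and 1e-05.

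Regions were joined peaks of both lists touching by at least 1 bp, with the mean of the 2 strongest summits as position and the mean fold as strength. Genes were 21887 RefSeq protein-coding genes (GRCm38.p6, chromosomes 1 to 19, X and Y); overlapping genes can share a region. Strand came from RefSeq start windows. Python 3.11.15, pandas 2.3.3 and scipy 1.17.1 were used, and counting steps were tested on simulated data. Genes were named by rank of region number, density, fold, ratio or gap, up to 3 members for the 8 densest and 4 least dense families, and all Runx, GATA, C/EBP, Ikaros and ETS members; values of regions just outside gene spans were added after values were seen. One item that the naming rule gives is not reported here. Members, families and motifs were chosen with earlier results of these data known.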

Additional observations from a re-analysis of the deposited data

How the results depend on the processing

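No paired analysis was possible because the map has a single group of 2 replicates. Depth is unknown, which limits what the absence of a weak peak in one list shows. With q of at most 0.01 in both lists, 90.8% of replicate 1 and 75.9% of replicate 2 peaks were shared, the summit distance was 19 bp, the median gap 17268.5 bp, the distance to a gene end 9030 bp, 25.1% of regions lay within 1 kb of an end, 41.5% of genes had a region, the density was 1.90 per 100 kb, and the densest family was keratin-associated proteins at 6.56 times all genes. With q of at most 1e-05 these were 94.7%, 78.4%, 17 bp, 22447.5 bp, 7551 bp, 28.8%, 36.6%, 1.47 and 8.50 times (again keratin-associated), over 26641 regions. The main family ratio was 5.16, for cytosolic ribosomal proteins. It became 5.56 (C/EBP factors) with 5 kb added either side of each gene and 7.18 (mast cell genes) in gene interiors, so the name of the densest family depends on the setting.

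Requiring an overlap of 50% of both peaks gave 64.8% and 62.8% shared, and summits within 100 bp gave 64.4% and 62.3%. The nearest pair of summits was 23 bp apart. With 5 kb either side 62.5% of genes had a region at 2.98 per 100 kb, the density of gene interiors was 1.97, and 38.2% of regions lay within 5 kb of an end. With a single list in place of the shared regions, leaving out 1 replicate each time, the median gap was 10079.5 to 12306 bp, 53.2% to 54.3% of genes had a peak, the density was 3.40 to 3.56, the end distance 12435 to 13194 bp, the share within 1 kb 17.66% to 17.67%, and the family ratio 4.33 (ribosomal) to 4.88 (mast cell). A RUNX string was in 24.4% to 24.9% of bound coding starts, the GC box in 98.1% to 98.3% of those above a fold of 50, and TGTGGT in 37.6% to 42.4% of bound remote starts. The cause of these shifts was not tested.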

Other observations

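A list of 28 microRNA hairpins, most of them known from blood cells and a few from other settings (such as Mir9-1 and Mir34a), was chosen after the data were seen. A Runx1 region lay within 5 kb of 16 of them (57.1%), against 33.0% of the 1005 hairpins of known place. Clustered hairpins that share a region (Mir144 and Mir451a, Mir23a, Mir27a and Mir24-2, Mir29a and Mir29b-1) are each counted. The mature RefSeq sequences of 4 with a region nearby follow, with the seed (bases 2 to 8) in capitals. They share no seed.
miR-142a-3p: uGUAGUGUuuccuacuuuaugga
miR-155-5p: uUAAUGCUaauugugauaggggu
miR-223-3p: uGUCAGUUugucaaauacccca
miR-144-3p: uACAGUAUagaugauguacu
Mir142, expressed throughout blood cells (chromosome 11, 87756864 to 87756927), had 4 regions within 5 kb, the nearest at 202 bp with folds of 3.48 and 4.52. Mir155, known from activated lymphocytes and myeloid cells, had its nearest summit at 96 bp (3.43 and 4.92). For Mir223, a myeloid microRNA on chromosome X, the nearest region was 3040 bp away with folds of 4.63 and 10.1. Mir144 and Mir451a, an erythroid pair, shared a region with folds of 3.38 and 9.33. The Mir23a, Mir27a and Mir24-2 cluster had 3 regions within 5 kb. Without a region within 5 kb were, among others, Mir181a-1, whose nearest summit was 33.0 kb away, Mir196b at 139 kb and Mir125b-1 at 342 kb.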
